A study of Homo sapiens with 12 samples.

Results

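The box C/D modification snoRNAs of HEK293T cells were followed through 12 libraries of total RNA that had not been depleted of rRNA. The members were all genes whose symbol starts with SNORD in both count tables, without U3, U8, U13 and SNORD22 by name, without pseudogenes and without copy rows. This rule gave 350 of 402 SNORD symbols and of 61163 genes. HEK293T is an established human cell line derived from embryonic kidney that expresses the SV40 large T antigen. HEK WT cells were unedited, and HEK UL1 KO cells were HEK293T cells after CRISPR-Cas9 editing of HNRNPUL1, which encodes hnRNP UL1, an RNA-binding protein. The sample titles name HEK293T for both genotypes, but the study's list of abbreviations gives HEK WT as wild-type HEK293. The sources do not say whether HEK UL1 KO is 1 clone, and no second knockout line was compared, so genotype and line cannot be told apart. Each genotype was separated into a nucleolar (NO) fraction and a cytoplasmic-nuclear (CN) fraction, with 3 libraries in each of the 4 groups. The labels name no treatment for any group.

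Box C/D snoRNAs are short RNAs that sit in the nucleolus with the proteins fibrillarin (FBL, the methyltransferase), NOP56, NOP58 and SNU13. Box C near the 5′ end and box D near the 3′ end fold together and hold these proteins. The bases just before box D, or before a similar internal box D′, pair with rRNA, and the ribose of the rRNA base at a fixed distance from the box is methylated. In human cells most of them are cut from introns of host genes after splicing, so their supply also depends on the host transcript.

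Most members carried these boxes in their sequence. RefSeq coordinates on GRCh38.p14 were found for 348 members, and a strand and sequence for 342, with a median length of 80 bases (33 to 237). Box C, searched as TGATGA in the first 25 bases of the RNA strand, was in 229 of the 342 (67.0%), and box D, searched as CTGA in the last 20 bases, was in 327 (95.6%). For 36 of these members the strand was itself chosen as the one with both boxes, so their hits were fixed in advance. Among 177 box H/ACA snoRNAs, the class that guides pseudouridylation, the same 2 motifs were found in 0.565% and 9.6%. A stretch of at least 10 base pairs to mature rRNA that ends 0 to 2 bases before a CTGA was found in 100 members (29.2%) and in 4.52% of the box H/ACA snoRNAs. Of these members, 46 matched 18S, 53 matched 28S and 1 matched 5.8S rRNA. An annotated gene on the same strand surrounded 324 members, of which 160 lay in protein-coding genes and 164 in lncRNA genes. For 35 members the strand was taken from the surrounding gene, so the same strand was given in advance. The rule also kept 7 U3-like rows (SNORD3E to SNORD3K), 10 U13-like rows and the rows SNORD115@ and SNORD116@, which stand for whole clusters and carry no length. Counts and medians over the members include those of these rows that passed the filter on low counts, in NO 2 U3-like rows, 1 U13-like row and both cluster rows.

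The sequences of some members with large genotype differences show how closely some of them resemble each other. They were picked after their values were seen. SNORD33 and SNORD43 are not shown, although they fell slightly more in NO than SNORD44. In the lines below, capitals mark an exact box C, the last box D and the longest run found to pair with rRNA, and any shorter second run before an internal CTGA is left in lower case. SNORD45C (chr1:75787072-75787149, plus strand), SNORD45A (chr1:75787889-75787972, plus strand) and SNORD45B (chr1:75789477-75789547, plus strand) lie in introns of RABGGTB. SNORD44 (chr1:173865968-173866028, minus strand) lies in an intron of GAS5, and SNORD99 (chr1:28578743-28578822, minus strand) in one of SNHG12. SNORD49A (chr17:16440036-16440106, plus strand), in SNHG29, is shown because it went the other way in CN.
SNORD45A: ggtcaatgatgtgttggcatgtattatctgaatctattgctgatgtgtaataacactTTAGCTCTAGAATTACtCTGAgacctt
SNORD45C: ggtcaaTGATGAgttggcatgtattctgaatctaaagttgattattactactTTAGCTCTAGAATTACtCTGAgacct
SNORD45B: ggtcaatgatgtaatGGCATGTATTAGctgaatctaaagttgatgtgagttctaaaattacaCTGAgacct
SNORD44: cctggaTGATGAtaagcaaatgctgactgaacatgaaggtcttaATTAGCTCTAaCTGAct
SNORD99: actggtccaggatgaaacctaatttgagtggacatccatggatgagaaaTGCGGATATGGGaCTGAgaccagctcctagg
SNORD49A: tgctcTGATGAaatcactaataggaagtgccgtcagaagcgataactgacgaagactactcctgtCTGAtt
SNORD45A and SNORD45C carry the same run of 16 bases, which pairs with GTAATTCTAGAGCTAA at positions 156 to 171 of 18S rRNA, counted from 1 at the 5′ end of the RefSeq gene RNA18SN1. The 5th base before the box, the one whose partner is methylated by the general rule, pairs with position 159. SNORD44 pairs through 10 bases with positions 163 to 172 of the same RNA, so its stretch overlaps theirs, and its 5th base faces position 166. SNORD45B pairs through 12 bases before its internal CTGA with positions 168 to 179, and its 5th base faces position 172. SNORD99 pairs through 12 bases with CCCATATCCGCA at positions 2784 to 2795 of 28S rRNA (RNA28SN1), facing position 2787. No stretch of 10 pairs was found for SNORD49A by this search.

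HNRNPUL1 was counted 594, 697 and 551 times in the 3 NO libraries of HEK WT and 453, 164 and 152 times in those of HEK UL1 KO. Its level fell by 2.00 on the log2 scale (SE 0.323, adjusted p = 0.00649) in NO and by 1.83 (SE 0.0828, adjusted p = 2.12e-07) in CN, so transcript was still counted in every HEK UL1 KO library. Here and below, levels are CPM, counts per 1000000 counts after scaling of the libraries with edgeR's TMM factors, log2 fold changes are HEK UL1 KO against HEK WT unless said otherwise, and adjusted p-values are from edgeR's quasi-likelihood test over all genes tested. VIM, NEFM, NEFL and LIN28B, which this line expresses, had from 58 to 2993 counts per library. UMOD, SLC12A1, AQP2 and NPHS1 of mature kidney had from 4 to 237 counts in NO libraries and from 0 to 28 in CN libraries. SNORD3A (U3) was 4.67 higher in NO than in CN on the log2 scale in HEK WT (SE 0.437, adjusted p = 0.000338). HEK WT NO replicate 3 stood apart from the other HEK WT NO libraries: its TMM factor was 1.4, against 0.69 and 0.622, and close to the 1.09 to 1.34 of HEK UL1 KO NO.

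In NO the members received a small part of all counts. In HEK WT NO their share was 0.0606, 0.0312 and 0.0812% of all gene counts in replicates 1 to 3, and in HEK UL1 KO NO it was 0.0385, 0.0426 and 0.025%. The groups overlap, through HEK WT replicate 2. Means were 0.0577% ± 0.0251 for HEK WT and 0.0354% ± 0.00919 for HEK UL1 KO (SD, n = 3 each, p = 0.3, exact permutation test, two-sided, where 0.1 is the smallest p that 3 libraries against 3 can give). In CN the share was about an order of magnitude lower, at 0.00525, 0.00515 and 0.00448% in HEK WT and 0.00395, 0.00397 and 0.0037% in HEK UL1 KO. These groups did not overlap, with means of 0.00496% ± 0.00042 and 0.00387% ± 0.00015 (SD, n = 3 each, p = 0.1, exact permutation test, two-sided).

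**Figure D1:**
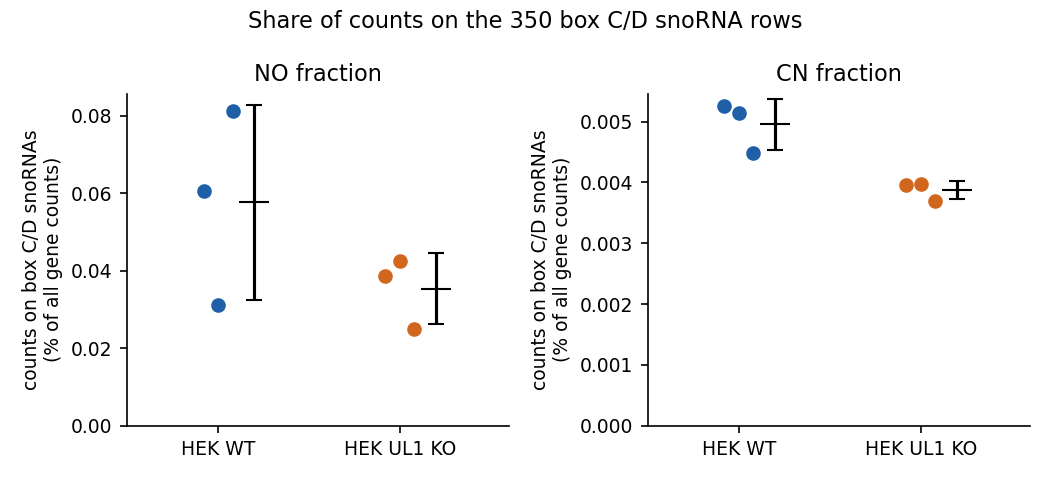
Share of all gene counts on the 350 members, in percent, for each library of the NO (left) and CN (right) fraction; points are libraries and the bar beside them is the mean with its SD (n = 3). HEK WT NO libraries run from 0.0312 to 0.0812% and overlap in part with the HEK UL1 KO NO libraries at 0.025 to 0.0426%, while in CN all HEK UL1 KO libraries lie below all HEK WT libraries.

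The counts were spread over many members in NO and over few in CN. The 10 most counted members took 34.8% of the members' counts in HEK WT NO and 48.8% in HEK WT CN. The U3-like row SNORD3E was among them in HEK WT NO and was first in HEK UL1 KO NO, with 6.17%. Per kb of RNA and averaged over the 6 NO libraries, the order began with SNORD76 (344 CPM per kb), SNORD33 (325), SNORD32A (201), SNORD44 (182), SNORD79 (156), SNORD68 (145), SNORD28 (138), SNORD14C (136), SNORD47 (125) and SNORD80 (109). SNORD76, SNORD44, SNORD79, SNORD47 and SNORD80 all come from GAS5, a non-coding gene whose exons encode no conserved protein and whose introns carry 10 members. The GAS5 members held 19.2% of the members' counts in HEK WT NO and 12.8% in HEK UL1 KO NO. Neighbours in this order were not separable, since the libraries of 1 member varied more than that: SNORD76 ran from 31.8 to 57.9 CPM and SNORD33 from 33.4 to 62.1 CPM within HEK WT NO.

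In CN the order per kb was led by rows that may not be snoRNA counts. SNORD141A (48.6 CPM per kb) and SNORD141B (39.5) came first, then SNORD140 (24.1), SNORD133 (17.3), SNORD76 (15), SNORD47 (13), SNORD79 (11.8), SNORD89 (10.6), SNORD80 (9.61) and SNORD97 (8.36). SNORD141A and SNORD141B match the spliced EEF1A1 mRNA, which encodes the abundant elongation factor 1 alpha, over 105 of their 105 bases on one strand, so their counts cannot be told from mRNA reads. SNORD140 shows no such match (50 of 120 bases, without gaps). These 3 rows made up 1.54% of the members' counts in HEK WT NO, 23.1% in HEK WT CN and 32.8% in HEK UL1 KO CN. Without them the CN share was 0.00399, 0.00396 and 0.00349% in HEK WT and 0.00273, 0.00275 and 0.00229% in HEK UL1 KO, still without overlap.

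In the nucleolar fraction, 22 members fell in HEK UL1 KO and 0 rose, among 143 members that passed the filter on low counts. The 22 falls ran from 1.24 to 2.69 on the log2 scale, and the largest were those of the SNORD45 snoRNAs, SNORD99, SNORD33 of RPL13A and SNORD43 of RPL3, followed by SNORD44 of GAS5. Of all 34836 genes tested, 0.574% were called lower and 0.365% higher, against 15.4% and 0% of the members. Of the 143 members, 140 had a fold change below 0, with a median of -0.98, where the median of all genes tested was 0. At an unadjusted p under 0.05, 91 members were lower and 0 higher, beside 5574 of all 34836 genes in either direction. DESeq2 called 56 members lower and 0 higher and gave no adjusted p for 20 of the 143. The share of all genes called by DESeq2 is not given here. In 75 of the 143 members (52.4%) every HEK UL1 KO library lay below every HEK WT library in CPM, which held for 9.17% of all genes tested. In bulk RNA, fewer molecules per cell and a smaller recovery of nucleoli cannot be told apart.

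These calls depend on the scaling. With total counts in place of TMM, 0 members were called in NO by edgeR (24 at an unadjusted p under 0.05), and the median of the members was -0.55 while the median of all genes moved to 0.40. Relative to the median of all genes, the members stood at -0.98 with TMM and at -0.95 with total counts. A change of scaling moves all genes by nearly the same amount, so the closeness of these values was fixed in advance. The calls also depend on single libraries. Without HEK WT NO replicate 3, 84 members were lower and 2 higher. Without HEK WT NO replicate 1, 6 were lower, and without HEK UL1 KO NO replicate 3, 8 were lower. The share of all genes called in these fits is not given here, so whether these counts are particular to the members cannot be read from them.

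The 3 members of RABGGTB, the gene of a subunit of the enzyme that attaches lipid to Rab proteins, fell together. SNORD45A had 12.3, 6.27 and 8.14 CPM in the HEK WT NO libraries and 2.29, 2.21 and 1.43 CPM in the HEK UL1 KO NO libraries. SNORD45C had 2.79, 2.04 and 2.75 CPM in HEK WT and 0.55, 0.352 and 0.562 CPM in HEK UL1 KO. SNORD45B, the least counted, had 1.38, 0.711 and 0.893 CPM in HEK WT and 0.153, 0.235 and 0.0703 CPM in HEK UL1 KO. In all 3, each HEK UL1 KO library lay below each HEK WT library. The log2 fold changes were -2.16 for SNORD45A (SE 0.316, adjusted p = 0.00263), -2.35 for SNORD45C (SE 0.312, adjusted p = 0.00125) and -2.69 for SNORD45B (SE 0.439, adjusted p = 0.00683). SNORD45B rests on 54, 23 and 53 counts in HEK WT and 17, 10 and 3 counts in HEK UL1 KO.

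SNORD99 had 2.64, 2.07 and 3.08 CPM in HEK WT NO and 0.361, 0.869 and 0.281 CPM in HEK UL1 KO NO, and it fell by 2.41 on the log2 scale (SE 0.378, adjusted p = 0.0049). Among the RPL13A members, SNORD33 had 62.1, 33.4 and 35.6 CPM in HEK WT and 10.3, 14.9 and 5.43 CPM in HEK UL1 KO, and its log2 fold change was -2.09 (SE 0.391, adjusted p = 0.0183). SNORD35A of the same gene fell by 1.61 (SE 0.312, adjusted p = 0.0231). SNORD32A, at 34.1, 20 and 19.3 CPM against 10.3, 11.2 and 4.29 CPM, did not overlap between genotypes but missed the threshold (log2 fold change -1.51, SE 0.37, adjusted p = 0.0598). SNORD17, the longest member and a guide with a stretch to 28S rRNA, had 11.2, 5.87 and 10.1 CPM in HEK WT and 3.87, 2.35 and 1.97 CPM in HEK UL1 KO, a fall of 1.72 (SE 0.327, adjusted p = 0.0198).

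All 10 members of GAS5 passed the filter in NO and 7 were called lower, with log2 fold changes between -2.07 and -1.51 over the 10. SNORD44 had 29.9, 9.48 and 14.4 CPM in HEK WT and 3.94, 5.76 and 3.14 CPM in HEK UL1 KO. SNORD47 had 22.1, 11.7 and 12.1 CPM in HEK WT and 4.27, 4.02 and 3.4 CPM in HEK UL1 KO. SNORD79, whose 10-base stretch faces position 3827 of 28S rRNA, had 25.9, 15.3 and 18.4 CPM in HEK WT and 6.22, 3.74 and 6.28 CPM in HEK UL1 KO. For these 3 the genotypes were well apart in every library, with log2 fold changes of -2.07 (SE 0.39, adjusted p = 0.0192), -1.97 (SE 0.315, adjusted p = 0.0061) and -1.87 (SE 0.32, adjusted p = 0.0091). SNORD76, the most abundant member per kb, fell from 57.9, 31.8 and 36.6 CPM to 13.3, 19 and 8.83 CPM (log2 fold change -1.62, SE 0.359, adjusted p = 0.0397). SNORD80 did not reach the threshold, at -1.51 (SE 0.354, adjusted p = 0.051).

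**Figure D2:**
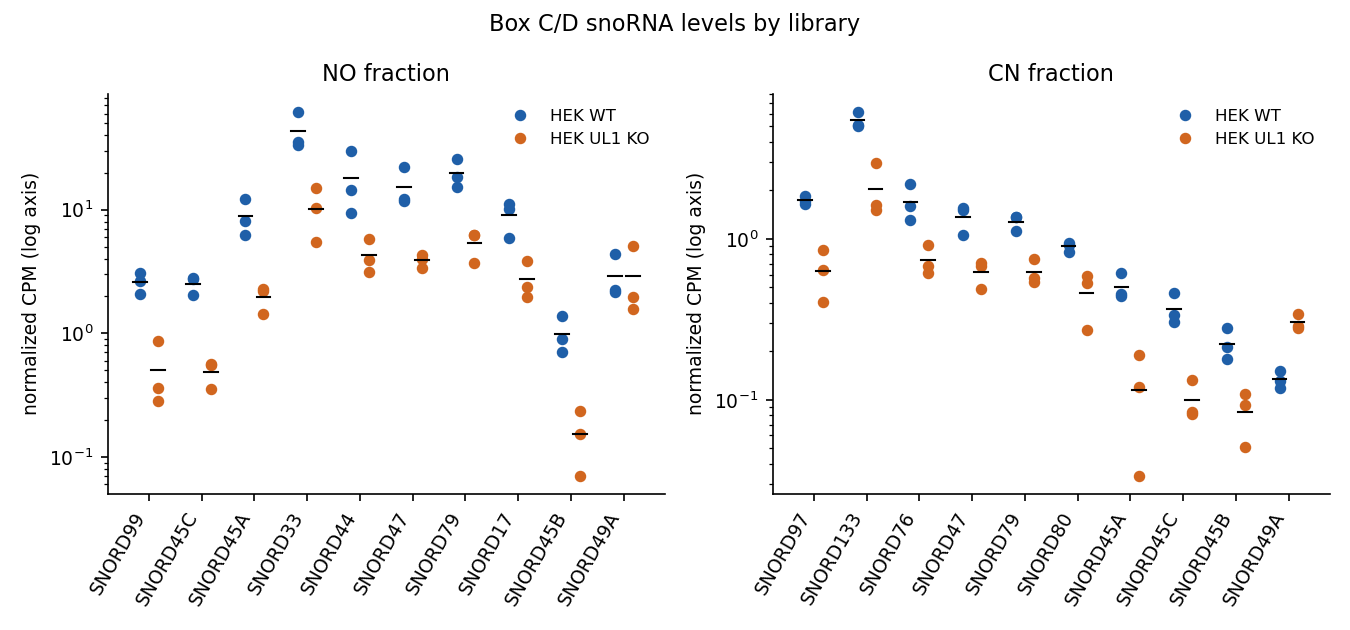
Normalized CPM (log axis) of the members with the largest falls in each fraction, of the SNORD45 members and of SNORD49A, by library, in NO (left) and CN (right), so that the panels hold different members; points are libraries of HEK WT (blue) and HEK UL1 KO (orange) and lines are means of 3. Within each panel, every HEK UL1 KO library lies below every HEK WT library for the members shown except SNORD49A; SNORD49A overlaps in NO and is higher in HEK UL1 KO in CN.

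Other abundant members were lower in HEK UL1 KO NO without passing the test. SNORD68, in RPL13, had a log2 fold change of -1.24 (SE 0.354, adjusted p = 0.108), SNORD28, in SNHG1, one of -1.09 (SE 0.348, adjusted p = 0.141), and SNORD14C, in the chaperone gene HSPA8, one of -0.87 (SE 0.335, adjusted p = 0.215). At the other end, only 3 members had a fold change above 0 in NO. SNORD132 stood at 0.21, and the other two were the cluster rows: SNORD116@ stood at 0.60 (SE 0.446, adjusted p = 0.508) and SNORD115@ at 0.43 (SE 0.438, adjusted p = 0.634). The counts of SNORD116@ in HEK WT NO were 29, 11 and 124, so HEK WT replicate 3 alone made the genotypes overlap.

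In CN, 23 members fell and 2 rose among the 79 that passed the filter, and the falls again included the snoRNAs of RABGGTB, GAS5 and RPL13A. The share of members called lower (29.1%) was not far from that of all 27234 genes tested, of which 22.3% were called lower and 15.6% higher, so the count by itself says little about the members. The median log2 fold change was -0.63, with 69 of 79 below 0, where the median of all genes tested was 0.04. Every HEK UL1 KO library lay below every HEK WT library in 35 of the 79 members (44.3%) and in 28.1% of all genes tested. SNORD103A and SNORD103B held identical counts in all 12 libraries, so the 23 calls rest on 22 separate measurements. DESeq2 called 17 lower and 1 higher, and with total counts in place of TMM, 14 members were lower and 2 higher. For these alternative fits the share of all genes called is not given here.

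The largest falls in CN among well counted members were those of SNORD97 and SNORD133. SNORD97, in the translation factor gene EIF4G2, had 1.73, 1.65 and 1.84 CPM in HEK WT and 0.642, 0.852 and 0.405 CPM in HEK UL1 KO (log2 fold change -1.44, SE 0.221, adjusted p = 0.000561). SNORD133, in LARP4, had 5.13, 5.03 and 6.17 CPM in HEK WT and 1.63, 2.96 and 1.52 CPM in HEK UL1 KO (log2 fold change -1.41, SE 0.214, adjusted p = 0.000515). The HEK WT libraries of both were close together, and the HEK UL1 KO libraries all lay below them. Among the GAS5 members, SNORD76 fell by 1.21 (SE 0.227, adjusted p = 0.00194), SNORD47 by 1.12 (SE 0.212, adjusted p = 0.00202), SNORD79 by 1.04 (SE 0.188, adjusted p = 0.00152) and SNORD80 by 0.94 (SE 0.258, adjusted p = 0.0157).

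Larger folds in CN belonged to members with few counts. SNORD78, another GAS5 member, had 19, 28 and 31 counts in HEK WT and 6, 5 and 3 counts in HEK UL1 KO, with a log2 fold change of -2.21 (SE 0.41, adjusted p = 0.00181). SNORD45A had 52, 38 and 35 counts against 14, 9 and 2 counts, a log2 fold change of -2.07 (SE 0.423, adjusted p = 0.00319). SNORD45C and SNORD45B fell by 1.85 (SE 0.366, adjusted p = 0.00265) and 1.36 (SE 0.414, adjusted p = 0.0252). Members called lower in both fractions were 11, which is 50% of the NO calls and 47.8% of the CN calls: SNORD45A, SNORD45B, SNORD45C, SNORD44, SNORD47, SNORD76, SNORD78, SNORD79, SNORD81, SNORD26 and SNORD33. In CN 22.3% of all genes tested were called lower, and the overlap over all genes is not given here, so these shares are a description only.

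The 2 members that rose in CN were SNORD49A and the cluster row SNORD116@. SNORD49A had 10, 11 and 12 counts in HEK WT and 25, 21 and 17 counts in HEK UL1 KO, with CPM of 0.119, 0.131 and 0.152 against 0.342, 0.28 and 0.287. The genotypes did not overlap, and the log2 fold change was 1.17 (SE 0.324, adjusted p = 0.0161). The log2 fold change of SNORD49A, CN fraction, was not called with DESeq2 (adjusted p = 0.054), with all 12 libraries in 1 fit (0.146), with the replicate block (0.0591), without HEK WT CN replicate 1 (0.0567) or without HEK UL1 KO CN replicate 1 (0.0864). In NO its CPM of 4.36, 2.22 and 2.14 in HEK WT and 1.97, 5.12 and 1.57 in HEK UL1 KO overlapped, with a log2 fold change of -0.02 (SE 0.398, adjusted p = 0.987) that was above 0 with total counts. SNORD116@ had 2, 6 and 1 counts in HEK WT CN and 20, 14 and 9 in HEK UL1 KO CN (log2 fold change 2.45, SE 0.563, adjusted p = 0.0062).

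Host genes moved beside their snoRNAs. GAS5 itself had 202, 112 and 121 CPM in HEK WT NO and 47.7, 55.3 and 38.7 CPM in HEK UL1 KO NO, a log2 fold change of -1.62 that just missed the threshold (SE 0.379, adjusted p = 0.051), beside a median of -1.75 for its 10 members. RABGGTB fell by 1.66 in NO (SE 0.305, adjusted p = 0.0161), beside a median of -2.35 for its 3 members. SNHG12 fell by 2.64 (SE 0.357, adjusted p = 0.00141), beside -2.41 for SNORD99, and RPL13A fell by 1.65 (SE 0.369, adjusted p = 0.0413), beside a median of -1.63 for its 4 members. In CN the log2 fold change was -0.74 for GAS5 (SE 0.0676, adjusted p = 1.97e-05), -1.19 for RABGGTB (SE 0.0853, adjusted p = 4.77e-06) and -1.05 for RPL13A (SE 0.076, adjusted p = 4.93e-06), beside member medians of -1.16, -1.85 and -1.37. SNHG29, the host of SNORD49A, stood at 0.11 in CN (SE 0.0699, adjusted p = 0.251).

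Over all members whose host was also tested, 109 of 136 in NO and 59 of 74 in CN had a lower fold change than their host, and the median difference was -0.27 in NO and -0.34 in CN. Over hosts, the fold change of the host and the median of its members had a Pearson r of 0.75 and a Spearman rho of 0.65 in NO (69 hosts), and 0.57 and 0.58 in CN (42 hosts). These are descriptions across genes that share the same 6 libraries and the same scaling, and reads of unspliced host RNA could add to both values; the part of the host transcript in the snoRNA values was not tested. SNHG1, the host of SNORD26, SNORD28 and SNORD29, had 86.9 CPM in HEK UL1 KO CN replicate 3 and 6.38 to 24.5 CPM in the other 5 CN libraries, which its 5 tested members did not share, with a median fold change of -0.53.

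**Figure D3:**
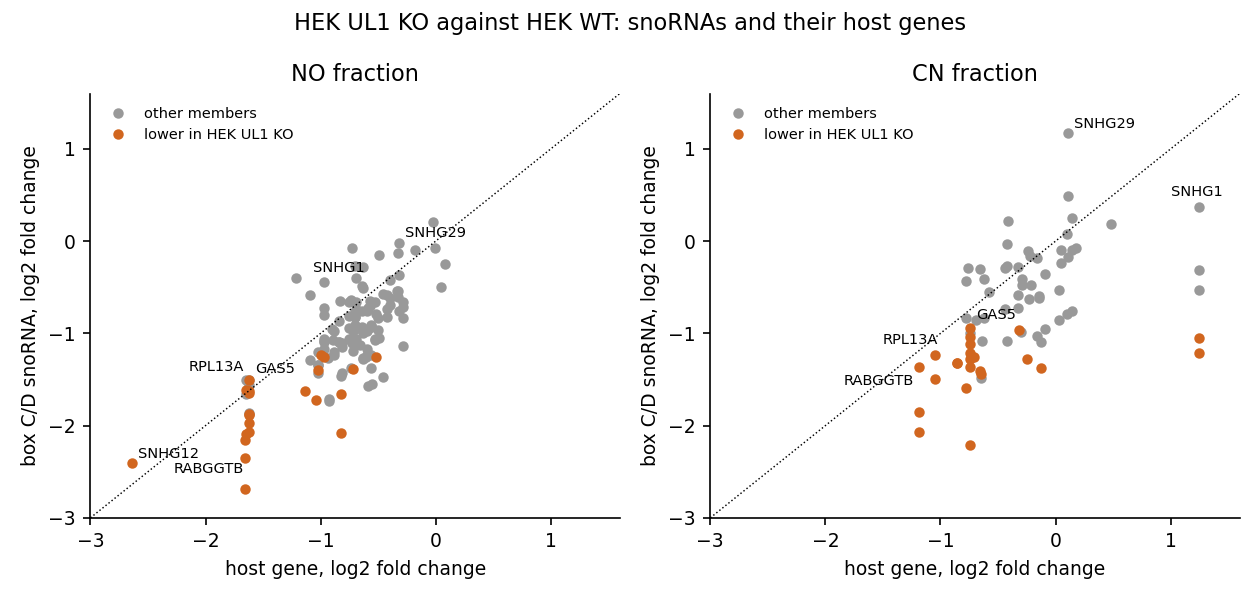
Log2 fold change of HEK UL1 KO against HEK WT for each member (vertical) and its host gene (horizontal) in NO (136 members, left) and CN (74 members, right); orange points are members called lower and the dotted line marks equal change. Most points lie below the line, RABGGTB, GAS5 and RPL13A members are at the lower left in both fractions, and SNHG1 lies far to the right in CN.

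Other short RNAs moved in the same direction as the members. In NO, 29 of 119 box H/ACA snoRNAs were called lower and 0 higher, with a median log2 fold change of -1.21. The medians were -1.06 for 119 nuclear tRNA genes, -0.75 for 20 spliceosomal snRNAs and -0.74 for 24 scaRNAs, the guides of Cajal bodies. In CN, 54 of 79 box H/ACA snoRNAs were lower and 1 higher (median -1.12), and the medians of tRNA genes, snRNAs and scaRNAs were -1.19, -0.96 and -0.40. The shift below 0 was thus seen in 5 classes of short RNA, and its size in the members was not tested against the others. It was not limited to short RNA. Of the 69 tested host genes in NO, 67 had a fold change below 0, with a median of -0.69. For the 42 hosts in CN, 34 lay below 0, with a median of -0.33.

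**Figure D4:**
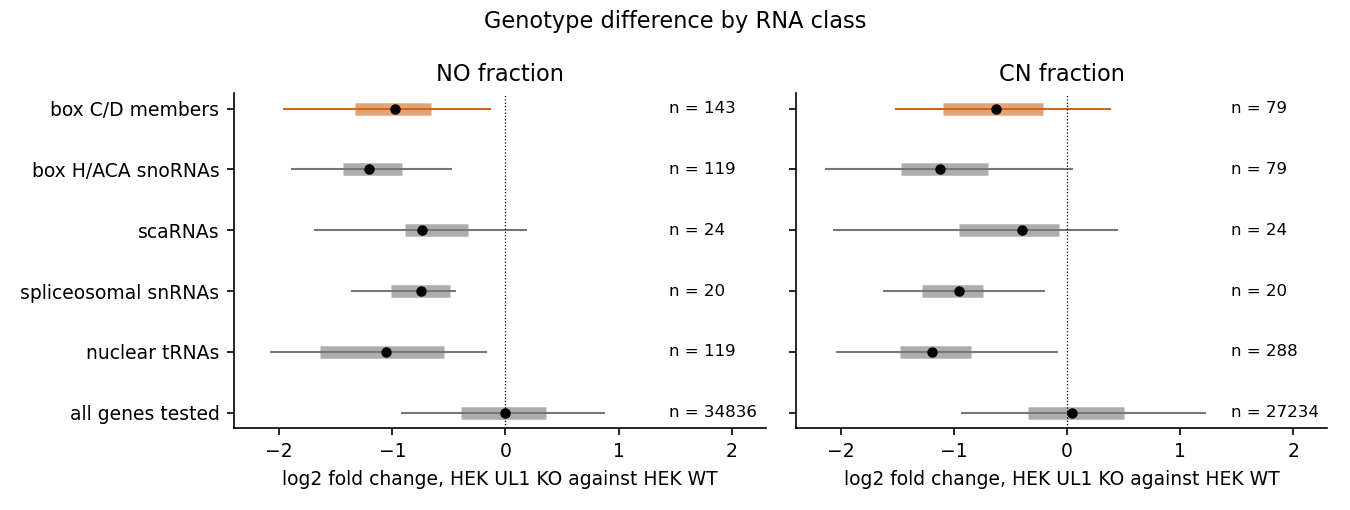
Log2 fold change of HEK UL1 KO against HEK WT by class of RNA in NO (left) and CN (right); dots are medians, thick bars the middle 50% and thin lines the 5th to 95th percentile of the genes that passed the filter, with their number at the right. The members (orange) have medians of -0.98 and -0.63, and every other class of short RNA also lies below the median of all genes tested.

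Of the proteins of the box C/D particle only the mRNAs were counted, and their differences were not tested against those of the members. In NO the log2 fold changes were -0.82 for FBL (SE 0.323, adjusted p = 0.225), -0.69 for NOP56 (SE 0.327, adjusted p = 0.314), -0.63 for NOP58 (SE 0.342, adjusted p = 0.374) and -0.43 for SNU13 (SE 0.3, adjusted p = 0.484, above 0 with total counts). In CN, FBL mRNA fell by 0.47 (SE 0.0844, adjusted p = 0.00156), NOP58 by 0.29 (SE 0.0666, adjusted p = 0.00664) and SNU13 by 0.34 (SE 0.104, adjusted p = 0.0273), and NOP56 stood at 0.14 (SE 0.0701, adjusted p = 0.145). Of 14 factors of assembly, maturation and turnover, such as NUFIP1, RUVBL1 and the debranching enzyme DBR1, 0 were called in NO (2 at an unadjusted p under 0.05). All 14 had a fold change below 0 in NO, with a median of -0.47. In CN, 9 were lower (64.3%, against 22.3% of all genes tested), with a median of -0.28.

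The median fold changes in NO lay close together in the guide classes, and their differences were not tested. Members with a stretch to 18S rRNA had a median log2 fold change of -1.07 (38 passed, 5 called lower), those with a stretch to 28S rRNA -1.06 (42 passed, 9 called) and those with a sequence but no stretch -0.95 (57 passed, 8 called). By length, the median was -0.95 for 80 members of up to 80 bases and -1.06 for 61 longer ones. Of 6 guides of the U6 snRNA, 5 passed in NO with a median of -1.06 and 0 calls, with 3 at an unadjusted p under 0.05, and in CN SNORD10 alone passed and fell by 1.28 (SE 0.283, adjusted p = 0.005). Of 3 guides of 5.8S rRNA, 2 passed in NO and 1 in CN, with 0 calls, and 1 in NO at an unadjusted p under 0.05.

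Of 12 snoRNAs that often serve as references in RT-qPCR of small RNA, 11 passed in NO, all with a fold change below 0, and 3 fell: SNORD44, SNORD43 and SNORD95. That is 27.3% of the 11, against 0.574% of all genes tested. SNORD43 had 0.948, 0.587 and 0.674 CPM in HEK WT and 0.153, 0.211 and 0.164 CPM in HEK UL1 KO (log2 fold change -2.08, SE 0.403, adjusted p = 0.0231). SNORD95 had 5.1, 3.8 and 5.26 CPM against 1.84, 2.44 and 1.1 CPM (log2 fold change -1.40, SE 0.308, adjusted p = 0.0391). Below 0 but not called were SNORD61 at -1.73 (adjusted p = 0.057), SNORD96A at -1.43 (adjusted p = 0.0516), SNORD68 at -1.24, SNORD24 at -0.92 (adjusted p = 0.182), SNORD48 at -0.83 (adjusted p = 0.251), SNORD38B at -0.82 (adjusted p = 0.371), SNORD66 at -0.66 (adjusted p = 0.405) and SNORD49A at -0.02. SNORD72 had 1 to 9 counts per NO library and was not tested. In CN, 6 of the 12 passed, of which SNORD44 and SNORD68 fell, SNORD49A rose, and SNORD24, SNORD61 and SNORD96A were not called. Of these 6, 33.3% were lower and 16.7% higher, against 22.3% and 15.6% of all genes tested. On so few genes these CN counts say little about the list.

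The imprinted clusters had few counts in these cells. The 40 members of the 14q32 cluster (SNORD113 and SNORD114) together had 2 to 15 counts per NO library and 0 or 1 per CN library. The 83 members of the 15q11 cluster, which include the SNORD115 and SNORD116 copies, together had 4 to 138 counts per NO library and 0 to 13 per CN library. None of these cluster members passed the filter in either fraction, and many of them are near-identical copies whose reads cannot be assigned with certainty. Of the 7 U3-like rows 2 passed in NO, and SNORD3E, which can share reads with U3, had 420 to 2244 counts per NO library and a log2 fold change of -0.25 (SE 0.326, adjusted p = 0.715). In all, 77 members passed in both fractions, 66 in NO alone, 2 in CN alone and 205 in neither, among them 41 with 0 counts in all 12 libraries.

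Between fractions, the members that passed the filter were strongly enriched in NO. In HEK WT, 128 of 142 members were higher in NO than in CN (90.1%) and 2 lower (1.41%), where 31.9% of all genes tested were higher and 20.9% lower. The median log2 difference of NO against CN was 3.56, beside 3.38 for box H/ACA snoRNAs, 0.91 for scaRNAs and -1.58 for tRNA genes. In HEK UL1 KO, 118 of 134 members were higher (88.1%) and 3 lower (2.24%), with a median of 3.01, where 40.7% of all genes were higher and 35.6% lower. The 2 medians are not over the same members and their difference was not tested. The filter let a gene pass on the counts of 3 libraries, so a member could pass on its NO libraries alone. In the comparison of genotypes, 143 members passed in NO but 79 in CN. The shares and medians here thus include members with few counts in CN, for which the filter favoured a higher level in NO.

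Among members with at least 50 counts on average, SNORD33 had the largest difference, with 45.3, 22.5 and 31 CPM in HEK WT NO and 0.633, 0.415 and 0.742 CPM in HEK WT CN (CPM scaled over the HEK WT libraries, log2 difference 5.79, SE 0.334, adjusted p = 4.48e-05). It was followed by SNORD135 at 5.44 (SE 0.411), SNORD55 at 5.32 (SE 0.266), SNORD14A at 5.14 (SE 0.284) and SNORD42A at 5.09 (SE 0.391), with adjusted p-values from 3.57e-05 to 0.000105. At the low end, SNORD141A had 3.03, 3.83 and 1.84 CPM in NO and 5.46, 5.29 and 6.02 CPM in CN, a log2 difference of -0.95 (SE 0.248, adjusted p = 0.0107), and SNORD141B stood at -0.84 (SE 0.248, adjusted p = 0.018). With total counts neither was called. SNORD140 at -0.11 (SE 0.283, adjusted p = 0.775, above 0 with total counts) and SNORD133 at 0.47 (SE 0.251, adjusted p = 0.139) did not differ beyond the spread, and SNORD89 was higher in NO at 1.69 (SE 0.279, adjusted p = 0.00396). In HEK UL1 KO the 3 members lower in NO were SNORD141A, SNORD141B and SNORD140.

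**Figure D5:**
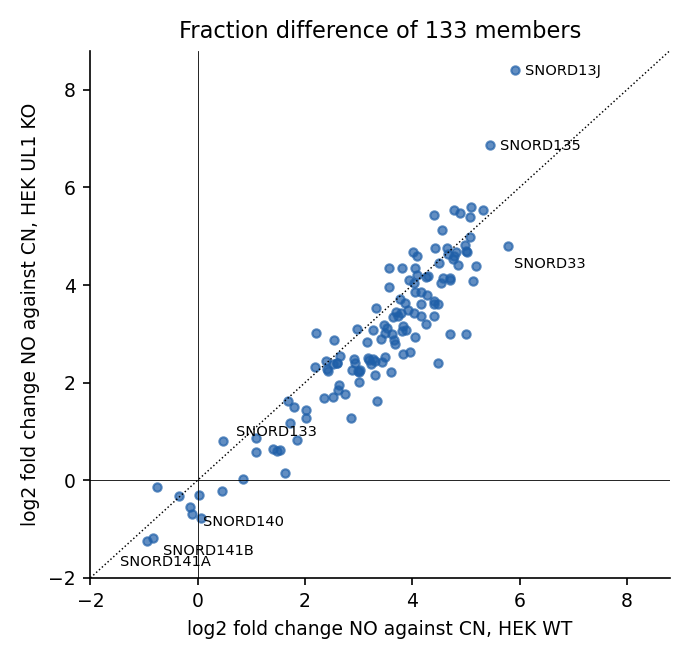
Log2 fold change of NO against CN for the 133 members tested in both genotypes, in HEK WT (horizontal) and HEK UL1 KO (vertical), with a dotted line of equal difference. Most points lie above 0 on both axes, SNORD141A and SNORD141B lie below 0 on both, and the U13-like row SNORD13J at the top had 0 counts in all HEK UL1 KO CN libraries, so its position depends on the fit.

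The genotype difference was not shown to differ between the fractions for any member. In the fit of all 12 libraries, 0 of 147 members had an interaction of genotype and fraction by edgeR, against 0.114% of all genes tested, with 2 at an unadjusted p under 0.05, and DESeq2 also called 0 (3 unadjusted). The lowest p-values belonged to SNORD121B (difference of the log2 fold changes, NO minus CN, -2.41, SE 0.842), SNORD52 (-1.41, SE 0.586) and SNORD116@ (-1.74, SE 0.889), each with an adjusted p of 1. SNORD121B rests on 2 to 13 counts per NO library and 1 to 5 per CN library.

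When the libraries were scaled on the members alone, few members moved against the rest of the pool in NO. There, 5 of 143 members were called (3.5%), where 31.6% of all genes differed on this scale: SNORD45B at -1.66 (SE 0.572, adjusted p = 0.0251), SNORD99 at -1.47 (SE 0.516, adjusted p = 0.0272) and SNORD45C at -1.24 (SE 0.513, adjusted p = 0.0494) were lower, and SNORD116@ at 1.59 (SE 0.509, adjusted p = 0.0183) and SNORD115@ at 1.36 (SE 0.524, adjusted p = 0.0383) higher. On this scale the median of all genes in NO was 1.06, and p-values were still adjusted over all genes. The many genes that differ make the adjusted p-values of the members lenient. At an unadjusted p under 0.05 there were 7 of the 143 members, about the share that this threshold gives where nothing differs. The 5 calls are therefore weak. Leaving out HEK WT NO replicate 1, HEK WT NO replicate 2, HEK UL1 KO NO replicate 1 or HEK UL1 KO NO replicate 3 left 0 calls. In CN, 16 of 79 were called (20.3%), where 59.2% of all genes differed, with the same adjustment over all genes. At an unadjusted p under 0.05 there were 21 of the 79. The largest relative falls were those of SNORD78 at -1.58 (SE 0.453), SNORD45A at -1.48 (SE 0.447), SNORD45C at -1.24 (SE 0.431), SNORD32A at -0.86 (SE 0.346) and SNORD97 at -0.82 (SE 0.228), with adjusted p-values from 0.00845 to 0.0454. The largest relative rises were those of SNORD116@ at 3.05 (SE 0.598), SNORD49A at 1.80 (SE 0.379), SNORD115@ at 1.72 (SE 0.454), SNORD49B at 1.12 (SE 0.363) and SNORD29 at 1.01 (SE 0.363), with adjusted p-values from 0.00107 to 0.029. SNORD141A, SNORD141B and SNORD140 were also among the relative rises in CN, at 0.49, 0.55 and 0.86, on a scale where 56.3% of all genes were called higher, 2.92% lower and the median of all genes was 0.68.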

How the data were processed

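RNA of both fractions and both genotypes was sequenced in 12 libraries. According to the study's methods and the submitters' processing notes, single reads of 75 bases were checked with FastQC 0.11.4, trimmed with cutadapt 3.7, aligned to GRCh38 with STAR 2.7.8 and counted per gene with featureCounts. The values that the authors deposited are raw, unnormalized gene counts, in 1 table per fraction, and the totals of the 12 libraries lie between 37141666 and 104040073. The STAR settings let reads with several alignments through, and the strand setting of featureCounts, what it did with such reads and the annotation version are not given in the sources used here. 0 columns were left unmatched.

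Members were taken by symbol, and lists and members were chosen with earlier results of these data known. Each comparison used edgeR 4.0.16 in R 4.3.3 (quasi-likelihood F test, filterByExpr with a minimum count of 10 and a minimum total of 15, TMM factors, Benjamini-Hochberg adjustment over all genes tested, called under 0.05). The relative comparison among members used TMM factors from the members alone. CPM are counts per 1000000 counts of TMM-scaled library size, and levels per kb are CPM divided by the RefSeq length. Shares of counts were compared with the exact permutation test, two-sided. The fits were tested on simulated counts with known changes. The changed genes there were well counted, all genes had the same dispersion, and no whole class was shifted. The simulation therefore checks the code and not how the fits behave on members with few counts.

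Named are HNRNPUL1, the 4 core proteins, 12 snoRNAs used as RT-qPCR references and, per fraction, the 10 members with the highest level per kb, the 8 largest falls and the 5 largest rises among called members whose CPM did not overlap and whose mean was at least 50 counts. Also named are the 5 highest and the 5 lowest members for NO against CN in HEK WT (mean of at least 50 counts), the 3 lowest interaction p-values, and up to 5 members in each direction in the relative comparison. Other names were chosen after their values were seen.

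Coordinates are those of RefSeq on GRCh38.p14, strands come from GENCODE release 44 or, where it had no entry, from the boxes or the host gene, and sequences were read from hg38. Alternatives were DESeq2 1.42.0, total counts, TMM without rRNA genes, other filters, all 12 libraries in 1 fit, the replicate number as a block, and leaving out each library. Nothing says that replicates came from separate cultures, so p-values measure the spread between these libraries, which may be technical.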

Additional observations from a re-analysis of the deposited data

How the results depend on the processing

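With total counts, 0 members were lower in NO and 14 in CN (main counts 22 and 23), 0 were lower in NO than CN in HEK WT, and the medians were -0.55 in NO, 3.93 for NO against CN in HEK WT and 3.76 in HEK UL1 KO; SNU13 (0.13) and SNORD49A (0.44) in NO, SNORD141A (0.05), SNORD141B (0.1) and SNORD89 (0.08) in CN and SNORD140 in NO against CN (0.21) changed sign. Members lower in NO numbered 56 with DESeq2, 49 with all 12 libraries in 1 fit, 63 with no filter and 5 with at least 10 counts in every library. Members higher in CN numbered 1 with DESeq2, with all 12 libraries and with the replicate block. With at least 10 counts in every library, 13 members were lower in CN (median -0.29), 65 and 32 were higher in NO than CN in HEK WT and HEK UL1 KO, and 2 moved within the pool in NO; fewer members could then be tested. With no filter the medians were -0.74 in NO, 2.76 and 2.23 for NO against CN in HEK WT and HEK UL1 KO, 5 members were lower in NO than CN in HEK UL1 KO and 3 moved within the pool in NO. With all 12 libraries the median was -0.82 in CN and 3.23 for NO against CN in HEK WT. SNORD49A in NO was 0.01 with TMM without rRNA genes, 0.02 with all 12 libraries and 0.11 with at least 10 counts; SNORD140 in NO against CN was 0.12 with the last. Where no cause is given, the cause was not tested. The share of all genes called is not given for any setting in this section. Whether these counts are particular to the members therefore cannot be read from them.

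Leaving out 1 library at a time gave 6 to 84 members lower and 0 to 2 higher in NO, 3 to 5 lower in NO than CN in HEK UL1 KO, 0 to 4 moved within the pool in NO and 10 to 16 in CN. The medians ran from -1.21 to -0.7 in NO, from 3.19 to 3.51 and from 2.74 to 3.01 for NO against CN in HEK WT and HEK UL1 KO, and from -0.33 to 0.08 for the difference between fractions. SNORD49A in NO ran from -0.65 to 0.42, SNORD140 in CN from -0.03 to 0.38 and in NO against CN from -0.48 to 0.08, and SNORD89 in CN from -0.32 to 0.14. Same-numbered libraries deviated from their group means in opposite directions in all 12 pairs compared (r from -0.482 to -0.0439 across genes), so the numbers were not taken to pair them; with the replicate block 19 members were lower in NO, 16 in CN and 2 moved within the pool in NO. Counts of the members in CN libraries, 2012 to 4661 in all, limit what can be tested there to 79 members.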
